A study of Mus musculus with 24 samples.

Results

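The transcripts of unstressed splenic B cells were compared with those of the remaining, non-B cells of the spleen, in Trp53+/+ mice of the C57/Bl6 strain aged 8 weeks. The 8 samples were chosen by their labels, as the 4 wild-type B and the 4 wild-type non-B samples that had been mock-treated, out of 24 samples in the series. No measured value entered the choice. Spleens had been pressed through a strainer, red blood cells lysed, and the splenocytes passed over a magnetic column with beads against B220, the form of CD45 (Ptprc) carried by mouse B cells, so that the B fraction is what the column retained and the non-B fraction is what flowed through. The non-B fraction is thus not one cell type but every splenocyte left after the lysis that did not bind, and the study treats it as enriched in T cells. The other samples of the series were irradiated or came from Trp53-/- mice, and of these the 4 unstressed Trp53-/- samples, 2 for each fraction, served to look at the same contrast in other libraries. Those mice carry the label C57/Bl6 and the same age, and the mice of all 12 unstressed samples were mock-treated.

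The spleen filters blood and holds B cell follicles, T cell zones and a red pulp in which macrophages clear old erythrocytes. In mice it also makes blood cells of the erythroid, megakaryocytic and granulocytic lineages. Mature B cells depend on a surface antigen receptor with its signalling chains Cd79a and Cd79b, on the survival receptor encoded by Tnfrsf13c and on the transcription factors Ebf1 and Pax5, which set and maintain the lineage.

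Before any comparison, the libraries were checked against their labels. The depth of each sample, estimated from the size of the lowest RPKM steps, lay between 7.76 and 10.2 M (mega) reads in exons for B cells and between 8.51 and 11.2 M for non-B cells. Xist, the RNA that silences the second X chromosome in females, stood at 95.7, 107, 118 and 98.6 RPKM in B replicates 1 to 4 and at 81.3, 83 and 90.8 in non-B replicates 1 to 3, but at 0.617 in non-B replicate 4. The Y-linked Eif2s3y was at 35.6 RPKM in that library and at 0.118 or less in the other 7. Non-B replicate 4 was therefore from male tissue and the other 7 libraries from female tissue, which the labels do not state, and B replicate 4 and non-B replicate 4 cannot come from the same animal. All 4 unstressed Trp53-/- libraries were male by the same measure, with Xist between 0.171 and 0.316 RPKM, so that genotype and sex cannot be told apart in them. Non-B replicates 1 and 2 also stood apart from replicates 3 and 4 for erythroid, granulocytic and cell division genes, as described with those genes.

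RPKM divides the reads of a gene by its length in kilobases and by the exonic reads of the sample, and so allows levels to be compared between genes. Its upper end was flattened in these files. The highest value in a sample lay between 167.9 and 228 RPKM, and Malat1, Eef1a1 and Actb, unrelated but abundant transcripts, reached 86.6% to 100%, 85.9% to 98.2% and 86.3% to 96.5% of it. With the estimated depths, the top gene of each sample held 1.63 to 1.97 reads per base, where the retention of 1 read per set of duplicates sets a limit. Differences between abundant genes may thus be smaller in RPKM than in the cells, which was not tested. This concerns 248 of the genes tested, which passed 100 RPKM in at least 1 of the 8 samples, more than it does the others. The level at which the flattening begins was not determined, and 1748 of the genes tested reached 50 RPKM in at least 1 of the 8 samples.

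Of 21671 genes in the files, 13756 passed an RPKM of 1 in 1 or more of the 8 samples and were tested with limma on log2(RPKM + 0.5). All differences below are B minus non-B on that scale, so that a positive value means a higher level in B cells, and adjusted p-values are those of limma after Benjamini-Hochberg adjustment over all genes tested. A gene was called where the adjusted p was under 0.05 and the difference beyond 0.58 in size. In all, 3407 genes were called, 24.8% of those tested. The B fraction was higher for 1084 of them (7.88% of those tested) and the non-B fraction for 2323 (16.9%). The 4 values of one fraction lay entirely above the 4 of the other for 5931 genes, 43.1%. The differences were less steep on the B side. There, 471 genes were called beyond a log2 difference of 1 and 0 beyond 3, and the largest value was 2.65, whereas 1568 genes of the non-B fraction passed 1, 161 passed 3 and the extreme was -4.60. Of all calls, 31.8% were higher in B cells, but this split depended on scaling, since quantile normalization gave 1823 genes higher in B and 1779 higher in non-B cells, or 50.6%. That scaling moved the median difference of all genes to 0.08, from 0.00 as deposited. Without the male non-B library, 1078 genes were higher in B and 2401 in non-B cells. In bulk RNA of this kind, a smaller share of cells of a type and less RNA per cell cannot be told apart.

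The 5 marker genes followed the labels of the fractions. Cd79a, on chromosome 7 (25682400 to 25687216 in NCBIM37, the assembly of mm9), encodes the signalling chain of the B cell receptor. It was at 129, 137, 148 and 131 RPKM in B replicates 1 to 4 and at 53.4, 69.8, 83.6 and 85.6 in non-B replicates 1 to 4. Ms4a1, on chromosome 19 (11324654 to 11340669), encodes CD20, and was at 106, 112, 124 and 107 against 33.8, 44.8, 48.4 and 47.5 RPKM. In both genes every B sample exceeded every non-B sample, with log2 differences of 0.92 ± 0.14 (SE, adjusted p = 0.00068) and 1.37 ± 0.11 (SE, adjusted p = 1.9e-05), and the level in non-B cells was far from 0. Cd3e, on chromosome 9 (44806826 to 44817673), encodes a chain of the T cell receptor complex. Its values were 4.74, 5.05, 4.11 and 5.44 RPKM in B and 56.9, 58.2, 81.8 and 79.6 in non-B samples, a log2 difference of -3.69 ± 0.14 (SE, adjusted p = 1.1e-06). Lyz2, on chromosome 10 (116714390 to 116719377), the lysozyme of macrophages, monocytes and neutrophils, gave 70.4, 61.4, 76.3 and 64.4 in B and 104, 100.3, 109 and 100.3 RPKM in non-B samples, with a difference of -0.6 ± 0.07 (SE, adjusted p = 0.00021). Its fractions did not overlap, but the B fraction kept the larger part of the non-B level, and the difference missed the fold threshold without B replicate 2 (-0.55) and, just short of it before rounding, without B replicate 4 or non-B replicate 3 (-0.58). Klf1, on chromosome 8 (87425827 to 87429194), the master factor of erythroid cells, was at 9.32, 4.59, 4.01 and 1.49 against 56, 52.8, 8.23 and 19.2 RPKM. It was called, at -2.54 ± 0.65 (SE, adjusted p = 0.012), although B replicate 1 lay above non-B replicate 3, and the non-B samples fell into a high pair and a low pair.

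**Figure D1:**
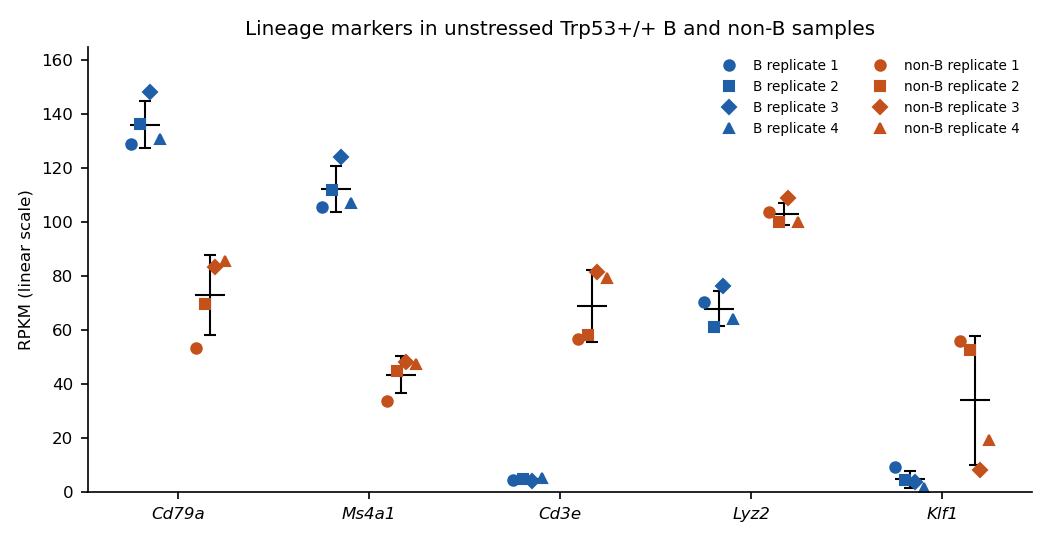
RPKM on a linear axis for the 5 marker genes in the 4 B and 4 non-B samples, with 1 point per sample and bars for the mean ± SD of each fraction. Cd79a and Ms4a1 sit higher in every B sample, Cd3e and Lyz2 in every non-B sample, and Klf1 splits the non-B samples into replicates 1 and 2 at 56 and 52.8 and replicates 3 and 4 at 8.23 and 19.2.

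**Figure D2:**
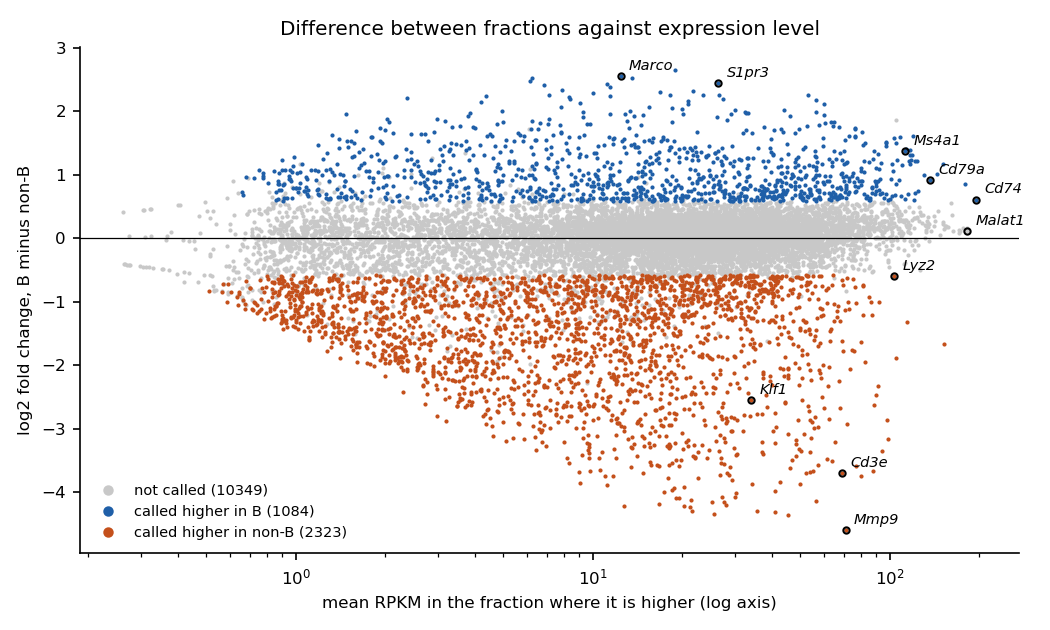
Log2 difference (B minus non-B) against the mean RPKM in the higher fraction, on a log axis, with 1 point per gene tested, coloured for the 1084 genes higher in B, the 2323 higher in non-B and the 10349 not called. Differences reach -4.60 on the non-B side and 2.65 on the B side, and the cloud narrows towards the highest levels.

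B cell surface receptors had the largest share of members called on the B side among the 41 lists. Of the 29 listed genes, all of them tested, 28 were higher in B cells, 0 were higher in non-B cells, and the median log2 difference was 1.16, against 0.00 over all genes. Cr2, which encodes the complement receptors CD21 and CD35, was at 115, 123, 137 and 103 RPKM in B and 28.8, 42.5, 41.3 and 43.1 in non-B cells, and Fcer2a, the low-affinity IgE receptor CD23, at 112, 119, 122 and 115 against 28.8, 47.3, 51.3 and 55.3. Both separated the fractions completely, at 1.61 ± 0.14 (SE, adjusted p = 2.2e-05) and 1.39 ± 0.18 (SE, adjusted p = 0.00025). Tnfrsf13c, the BAFF receptor on which the survival of mature B cells depends, was at 91.5, 92.1, 103 and 101 against 23.6, 33.8, 42.8 and 44.4 RPKM. Of the same list, Fcrl5, a receptor of the Fc receptor-like family found on marginal zone B cells, had the largest difference, 1.97 ± 0.2 (SE, adjusted p = 5.5e-05), with 37.2, 35, 38.1 and 23.3 RPKM in B and 7.67, 11.1, 7.69 and 6.22 in non-B cells. B replicate 4 was the lowest of its fraction there. Il5ra, Cd38 and Fcrl1 followed, at 1.66, 1.59 and 1.58. Cd24a was the member not called, with 117, 118, 136 and 116 RPKM in B and 113, 117, 81 and 82.6 in non-B cells, a difference of 0.32 (adjusted p = 0.075). This surface protein is also made by erythroid and granulocytic precursors, and its level in non-B replicates 1 and 2 was close to that of the B samples, while replicates 3 and 4 lay below them.

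The signalling machinery behind the B cell receptor was higher in B cells for 17 of 30 tested members and lower for 1, with a median difference of 0.63. Blnk, the adaptor that links the kinase Syk to Btk, stood at 79.8, 83.3, 85.4 and 74.2 RPKM in B and 19.9, 27, 25.2 and 28.2 in non-B samples, and Btk itself, a kinase required for B cell maturation, at 50.7, 57, 57 and 56.2 against 24.5, 26.7, 25.2 and 22.9. The fractions were apart in both, by 1.68 ± 0.1 (SE, adjusted p = 4.7e-06) and 1.14 ± 0.06 (SE, adjusted p = 2.9e-06). Vpreb3, a protein that binds nascent immunoglobulin light chains, and the adaptor Bank1 were higher by 1.78 and 1.6. The kinases Syk and Lyn differed less than Btk, at 0.71 and 0.6. Lyn fell to 0.55 and 0.57 without B or non-B replicate 3 and lost its call. The myeloid Src kinase Fgr went the other way, at -0.81 (adjusted p = 0.0014).

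Among transcription factors of the B lineage, 18 of 31 tested were higher in B cells and 1 was higher in non-B cells. Ebf1, the factor that specifies the lineage, was at 57.7, 65.9, 64.9 and 70.1 RPKM in B cells against 10.6, 19.4, 22.7 and 21.2 in non-B cells, a difference of 1.83 ± 0.21 (SE, adjusted p = 0.00012). Pax5, which holds cells in the lineage, was at 101, 107, 108 and 102 against 22.7, 36.6, 43 and 49.8, at 1.5 ± 0.2 (SE, adjusted p = 0.00034). For both, non-B replicate 1 was the lowest of all 8 samples, and the 2 fractions did not overlap. Mef2c, a factor for B cell proliferation after receptor signals, and Zfp318, which controls the splicing of IgD, were higher in B cells by 1.55 and 1.34. Irf4, Pou2af1, Spib and Bcl11a were higher by 1.25, 1.22, 1.18 and 1.14. Klf3 was the member higher in non-B cells, at -0.61 (adjusted p = 0.0012), and it was not called without B replicate 3 (-0.57), non-B replicate 3 (-0.54) or non-B replicate 4 (-0.57).

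The non-B fraction was not free of transcripts of the listed B cell genes. Over the 28 called surface receptors, the median non-B level was 32.9%, 44.2%, 45.7% and 50.1% of the B mean in non-B replicates 1 to 4. The reverse was lower, since the 31 called T cell genes had a median level of 12.4%, 11.8%, 9.42% and 9.44% of the non-B mean in B replicates 1 to 4. Both shares cover only members called in these same samples, a choice that lowers them. It left out 1 of 29 receptors and 4 of 35 T cell genes. The part of the flattening of abundant genes in these shares was not tested. A level per gene also does not show which cells of a fraction made the transcript. Ptprc, the gene of the protein used for the sort, was not called, with 102, 112, 126 and 99.9 RPKM in B and 90.4, 83.1, 95.9 and 91.9 in non-B cells, and a value per gene cannot show which of its splice forms was made.

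**Figure D3:**
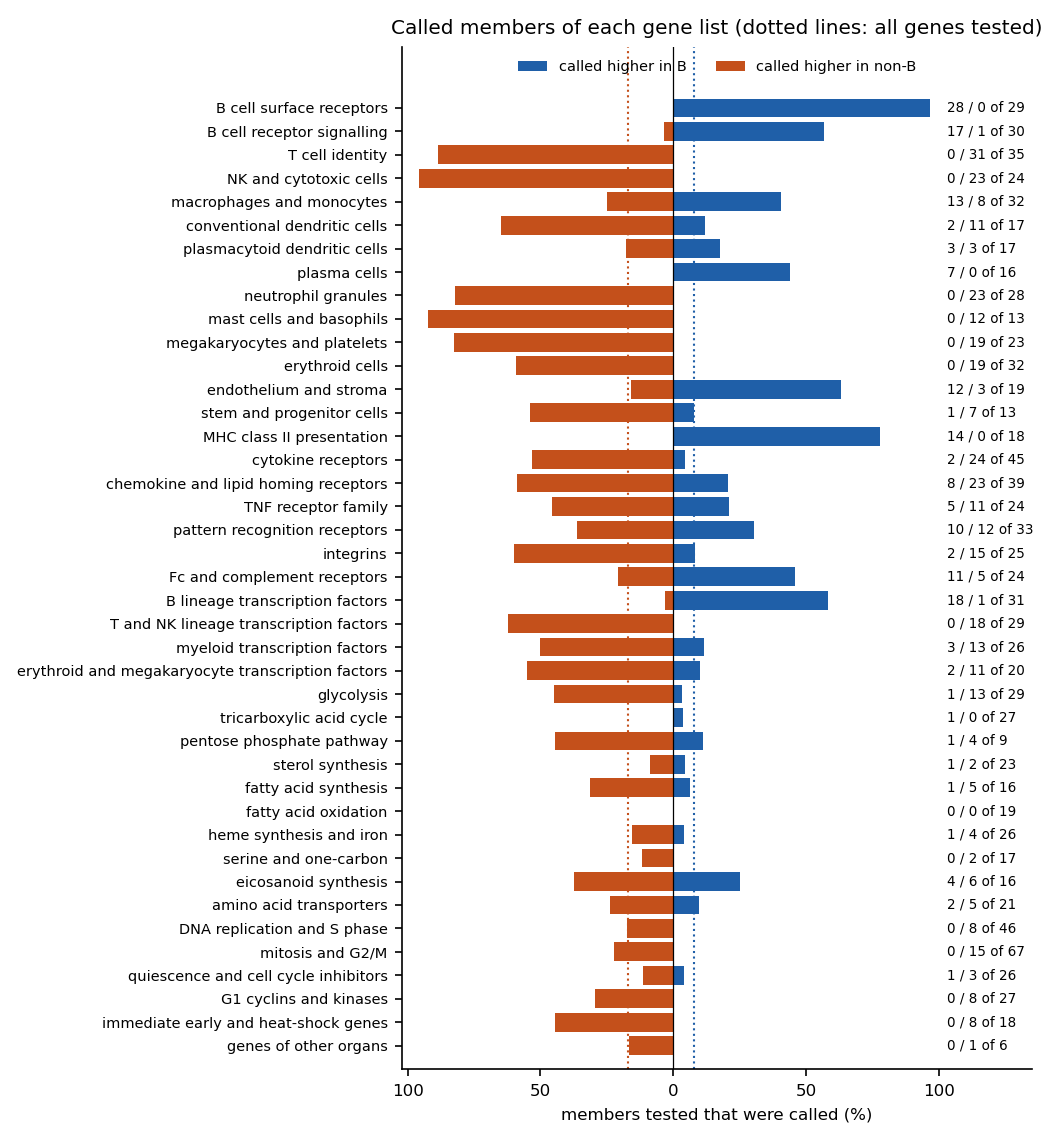
Percent of the tested members of each gene list that were called higher in B cells or higher in non-B cells, with the counts beside the bars and dotted lines at the share over all genes tested (7.88% and 16.9%). B cell surface receptors (28 of 29) and MHC class II presentation (14 of 18) lead on the B side, and NK and cytotoxic cells (23 of 24), mast cells and basophils (12 of 13) and T cell identity (31 of 35) on the non-B side.

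MHC class II molecules present peptides to CD4+ T cells, and B cells are among the cells that carry them without induction. Of the 18 genes listed for this pathway, 14 were called, each of them with the higher level in B cells, and the median difference was 0.83. The master regulator Ciita, a coactivator without which class II genes are silent, was at 76.2, 80.9, 81.8 and 80.4 RPKM in B and 34.1, 37.4, 39 and 42.6 in non-B cells, at 1.05 ± 0.07 (SE, adjusted p = 6e-06). The class II chain H2-Eb2 differed most, with 52.4, 48.8, 52.9 and 43.7 against 12.8, 16.4, 15.6 and 13.9 RPKM and a difference of 1.72 ± 0.09 (SE, adjusted p = 2.7e-06). The regulators of peptide loading H2-Oa and H2-Ob were higher by 1.37 and 1.23, and H2-DMb1 and H2-DMb2 by 1.0 and 1.18, though reads may be split between this last pair of near-identical genes. The invariant chain Cd74 was the most abundant transcript of every B sample, at 181, 195, 228 and 177 RPKM, against 119, 119.8, 138 and 133 in non-B cells. Its difference of 0.61 ± 0.09 (SE, adjusted p = 0.00073) was just past the threshold, which it missed without B replicate 3 (0.53) or non-B replicates 1 or 2 (just under 0.58), and it stands where RPKM values were flattened. H2-Ab1, another class II chain, was just short of it, at 0.56 (adjusted p = 0.0013), and past it without B replicates 1 or 4 (0.59 and 0.61) or non-B replicates 3 or 4 (0.59 and 0.60).

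The promoters of class II genes are known for a Y box, an inverted CCAAT sequence bound by the factor NF-Y. The letters CCAAT, on either strand, were present in 76.9% of the 13 class II promoters found in RefSeq (250 bases before to 50 after the start), against 39% of the 10085 promoters of genes tested. The promoter of H2-Eb2 is shown, from GRCm38.p6 at chr17:34325425-34325724 on the plus strand, as that of the called member with the largest difference among those with a match, with the CCAAT match on the reverse strand in capitals, starting at -100 from the gene start.
H2-Eb2: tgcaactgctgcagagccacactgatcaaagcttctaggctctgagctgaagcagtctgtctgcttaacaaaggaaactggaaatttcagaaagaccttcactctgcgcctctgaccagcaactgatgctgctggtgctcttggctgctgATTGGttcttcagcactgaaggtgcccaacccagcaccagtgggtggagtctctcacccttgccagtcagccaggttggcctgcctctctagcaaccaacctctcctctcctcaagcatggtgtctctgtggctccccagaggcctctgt
A match of letters is a description, and no binding was measured here.

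Genes of antibody-secreting plasma cells were higher in B cells for 7 of 16 tested members and higher in non-B cells for 0. Mzb1, a chaperone of immunoglobulin assembly, was at 84, 77.3, 88.8 and 75.8 RPKM in B and 32.6, 36.1, 24.5 and 25.2 in non-B cells (1.46 ± 0.12 SE, adjusted p = 2.2e-05). Sdc1, the plasma cell surface protein CD138, was at 19.4, 15.5, 16 and 12.5 against 8.96, 10.2, 4.63 and 4.36, at 1.19 ± 0.27 (SE, adjusted p = 0.0062). B replicate 4 was the lowest B sample for both, and non-B replicates 3 and 4 were the lowest of all. Fkbp11 and Derl3, which act in protein folding and export from the endoplasmic reticulum, were higher by 1.08 and 0.94. These calls rested on single libraries. Without B replicate 1, B replicate 2 or non-B replicate 4, 4 of the 16 genes were called, with Fkbp11 at 0.94, 1.03 and 0.91 and Derl3 at 0.79, 0.89 and 0.81, neither called, and Derl3 was also not called without B or non-B replicate 3 (0.94 and 0.72). The regulators Prdm1 and Xbp1 were not called, at -0.43 (adjusted p = 0.037) and 0.2 (adjusted p = 0.27). Rearranged immunoglobulin and T cell receptor segments were not analysed here.

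The fraction retained by the column held transcripts of other cells too. Macrophage and monocyte genes split between the fractions, with 13 of 32 tested members higher in B and 8 higher in non-B cells. Marco, a scavenger receptor of marginal zone macrophages, was at 17.1, 10.9, 10.5 and 11 RPKM in B and 1.18, 1.84, 1.83 and 1.89 in non-B cells, at 2.55 ± 0.19 (SE, adjusted p = 1.1e-05). Timd4, a receptor for phosphatidylserine on dying cells, was at 10.9, 9.76, 11.1 and 12.8 against 0.831, 1.46, 2.31 and 2.37, and Cd5l, a protein secreted by macrophages, at 78.8, 70.3, 94.1 and 62.9 against 20.9, 27.9, 20.4 and 20.9. All 3 were higher in every B sample, and the last 2 were called at 2.44 ± 0.24 (SE, adjusted p = 5.3e-05) and 1.74 ± 0.14 (SE, adjusted p = 1.6e-05). Spic, the factor that red pulp macrophages require, was at 56.6, 49.4, 68.3 and 49.9 against 15.9, 27.6, 21.9 and 26.3 RPKM (1.29 ± 0.17 SE, adjusted p = 0.00033). The tyrosine kinase receptors Mertk and Axl, the adhesion molecule Vcam1 and the complement genes C1qa, C1qb and C1qc were higher by 1.46, 1.15, 1.22, 1.16, 1.06 and 1.16. Cd163, the haptoglobin-haemoglobin receptor, was higher by 1.06 (adjusted p = 0.0018). Siglec1 and Slc40a1, also known from splenic macrophages, were not called, at 0.47 (adjusted p = 0.008) and 0.49 (adjusted p = 0.022).

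Other members of the list were higher in non-B cells. Ccr2, the chemokine receptor by which monocytes leave the bone marrow, was at 13, 7.95, 10.7 and 8.97 RPKM in B and 73.4, 61.8, 53.4 and 48.7 in non-B cells, at -2.5 ± 0.17 (SE, adjusted p = 6e-06). Itgam, the CD11b integrin chain of myeloid cells, was at 7.99, 6.29, 5.69 and 5.23 against 59.1, 54.8, 39.4 and 43.4, at -2.87 ± 0.16 (SE, adjusted p = 2.8e-06). The non-B samples exceeded the B samples several-fold in both. Cx3cr1, a receptor of monocytes, and the macrophage receptors Trem2 and Msr1 were higher in non-B cells as well, at -3.04, -2.69 and -2.02. Over the whole list, the summed level ran from 1263 to 1718 RPKM in B and from 1137 to 1306 in non-B samples. The conventional dendritic cell list went mostly to the non-B side, with 2 of 17 tested members higher in B and 11 in non-B cells. The plasmacytoid list had 3 of 17 on each side, among them Tcf4 and Tlr9 with B and Ccr9 and Runx2 with non-B cells. On the non-B side this was close to the share over all genes tested, which was 16.9%, against 7.88% on the B side.

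Endothelial and stromal genes were called more often on the B side, though not all of them. Of the 29 endothelial and stromal genes in the files, 19 passed the filter, 12 of them higher in B and 3 higher in non-B cells. Over all genes tested, these shares were 7.88% and 16.9%. With replicates 3 and 4 alone, 5 endothelial and stromal genes were higher in B cells. The summed level of all 29 ran from 120.3 to 130.3 RPKM in B and from 155 to 195 in non-B samples. Over the tested genes alone and without Thy1, a gene that T cells also express, it ran from 111.7 to 123.7 and from 79.5 to 91.8. Stab2, a scavenger receptor of the sinus endothelium, was at 5.67, 6.42, 6.92 and 5.83 RPKM in B and 1.03, 2.18, 2.29 and 2.74 in non-B cells (1.44 ± 0.22 SE, adjusted p = 0.00078). The junction proteins Cldn5 and Cdh5 and the matrix protein Sparc were higher by 1.83, 1.22 and 1.77. Cldn5 and Cdh5 were low, with means of 2.06 and 1.99 RPKM in B and 0.195 and 0.579 in non-B cells. Both passed the filter only through B samples. Pecam1, which lymphocytes express too, was at 0.64, or 0.53 and not called without non-B replicate 1. Eng, the endoglin receptor of endothelium, went the other way, at 2.1, 1.37, 1.8 and 1.98 RPKM in B and 14.5, 12.3, 7.53 and 8.02 in non-B cells (-2.22 ± 0.22 SE, adjusted p = 5.3e-05), and Kdr, Tie1 and Egfl7 were not called. The fibroblast genes Col1a1, Col1a2, Col3a1, Pdgfra, Pdgfrb, Dcn, Ccl19 and Lepr were below the filter in every sample.

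T cell genes marked the non-B fraction. Of the 35 listed members, all tested, 31 were higher in non-B cells and 0 in B cells, with a median difference of -2.94. The coreceptor Cd4 was at 9.06, 6.97, 8.04 and 8.48 RPKM in B and 38.7, 43.4, 60.8 and 60 in non-B cells, and Cd8a at 9.44, 9.68, 8.5 and 7.72 against 48.3, 49.8, 69.5 and 71.9. In both, as in Cd3e, non-B replicates 3 and 4 were higher than replicates 1 and 2, and the differences were -2.55 ± 0.15 (SE, adjusted p = 4e-06) and -2.67 ± 0.14 (SE, adjusted p = 2.7e-06). Trat1, an adaptor of the receptor complex, Cd6, a coreceptor for adhesion, Themis, required for thymic selection, and Thy1 led the list, at -4.15, -3.87, -3.69 and -3.67. Of genes with a B cell counterpart or shared use, the kinases Lck and Fyn differed by -1.64 and -0.79. The adhesion molecule Cd2 was not called, with 94.6, 96.3, 109 and 92.2 RPKM in B and 69.6, 80.8, 107 and 103 in non-B cells (0.14, adjusted p = 0.41), and mouse B cells are known to express it.

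Cytotoxic and natural killer genes were higher in non-B cells for 23 of 24 tested members. Gzmb, the granule protease granzyme B, was at 4.39, 1.81, 3.52 and 3.97 RPKM in B and 25.5, 28.6, 24.1 and 34.2 in non-B cells, and Nkg7, a granule protein, at 17.8, 13.8, 17.9 and 22 against 80, 77.7, 91.5 and 116. In both, non-B replicate 4 was the highest of the 8 samples. The calls were -2.91 ± 0.23 (SE, adjusted p = 1.5e-05) and -2.32 ± 0.16 (SE, adjusted p = 6.9e-06). Perforin (Prf1), the activating receptors Ncr1 and Klrb1c and the cytokine Ifng were at -2.31, -1.83, -2.13 and -2.04.

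Factors of the T and NK lineages were higher in non-B cells for 18 of 29 tested and in B cells for 0, with a median of -0.89. Bcl11b, which commits precursors to the T lineage, was at 2.13, 2.46, 2.03 and 1.72 RPKM in B and 30.1, 32, 53.5 and 49.2 in non-B cells, a difference of -3.97 ± 0.2 (SE, adjusted p = 1.9e-06). Tcf7, the factor TCF-1 of naive and memory T cells, was at 9.16, 8.68, 6.73 and 10.5 against 76.1, 79.7, 112 and 110.3, at -3.35 ± 0.16 (SE, adjusted p = 1.8e-06). Foxp3, the factor of regulatory T cells, was at 3.37, 3.02, 1.97 and 3.45 against 14.3, 16.5, 14.9 and 16.4 RPKM (-2.24 ± 0.16 SE, adjusted p = 8.2e-06), and unlike the previous genes it was about level over the 4 non-B samples. Gata3, Tbx21, Eomes and Zbtb16, which direct helper subsets, the cytotoxic cells and the innate-like T cells, were at -3.57, -2.13, -2.68 and -2.99.

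Granulocyte genes held the largest difference of all genes tested, that of Mmp9. Of the 28 listed genes of neutrophil granules and surface, 23 were higher in non-B cells and 0 in B cells, with a median of -3.57. Mmp9, the gelatinase of late granules, was at 5.88, 1.6, 2.17 and 1.23 RPKM in B and 93.3, 83.6, 38.5 and 68.6 in non-B cells (-4.6 ± 0.41 SE, adjusted p = 3e-05). Mpo and Elane, the peroxidase and the elastase that only the precursors transcribe, were at 45.1, 41.5, 6.29 and 9.27 and at 46.2, 42, 4.58 and 7.7 RPKM in the non-B samples, and in the B samples at 0.955, 0.545, 0.412 and 0.041 and at 1.27, 0.116, 0.997 and 0. Non-B replicates 1 and 2 thus held several times the level of replicates 3 and 4 for both precursor genes. Their differences between the fractions were -4.34 ± 0.63 (SE, adjusted p = 0.00053) for Mpo and -4.16 ± 0.77 (SE, adjusted p = 0.0021) for Elane. S100a8, a calcium-binding protein of mature neutrophils, was at 82.1, 52.5, 61.8 and 19.1 in B and 175, 168, 125 and 143 RPKM in non-B cells, within the flattened range. B replicate 1 was the highest and B replicate 4 the lowest of the B samples for it, and the summed level of the list ran from 67 to 362 RPKM in B and from 728 to 1741 in non-B samples. Mast cell and basophil genes were higher in non-B cells for 12 of 13 tested, led by the protease Prss34 at -4.21 and with Cpa3 at -3.19 and the growth factor receptor Kit at -2.63.

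Megakaryocyte and platelet genes were higher in non-B cells for 19 of 23 tested. Pf4, a chemokine of platelet granules, was at 3.14, 2.72, 3.12 and 4.43 RPKM in B and 11.7, 13.8, 22.1 and 22.8 in non-B cells (-2.19 ± 0.23 SE, adjusted p = 8e-05). Here replicates 3 and 4 were the high pair. Ppbp, Itga2b, the CD41 integrin chain, and Tubb1, the tubulin of platelets, were at -2.06, -1.92 and -2.43. Genes of stem and progenitor cells were higher in non-B cells for 7 of 13 tested and in B cells for 1. Of 22 genes of other organs, set as a check, 6 passed the filter and 1 was called, or 2 without non-B replicate 3, the first being Mbp at -1.27. Over all genes tested, 24.8% were called.

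Erythroid genes were higher in non-B cells for 19 of 32 tested and in B cells for 0, with a median of -1.91. Sample weights, which favoured non-B replicate 2 over replicates 3 and 4, gave 29 and 0. The summed level of the 34 listed genes in the files was 194 to 355 RPKM in B and 389 to 1255 in non-B samples. Gata1, the factor on which erythroid and megakaryocytic cells depend, was at 4.14, 2.36, 2.34 and 0.931 RPKM in B and 43.2, 38.8, 10.9 and 14.1 in non-B cells, at -3.09 ± 0.5 (SE, adjusted p = 0.00094). Kel, a surface protein of red cell precursors, was at 4.91, 3.99, 1.77 and 0.455 against 45.9, 47.2, 5.35 and 10.3 RPKM, at -2.84 ± 0.78 (SE, adjusted p = 0.016). Non-B replicates 1 and 2 again were well above replicates 3 and 4, and for Kel non-B replicate 3 was close to B replicate 1. The products of the last stage did not follow, in suspensions whose red cells had been lysed. Hbb-b1, a chain of adult haemoglobin, was at 30.7, 19, 14.1 and 46.8 RPKM in B and 43.3, 38.9, 34.5 and 21.5 in non-B cells, and Alas2, the first enzyme of heme synthesis in red cells, at 23.9, 12.9, 6.55 and 46.7 against 29.9, 34.2, 29.4 and 15.2. Neither was called, B replicate 4 was the highest of all 8 samples for both, and the globin copies may share reads. The erythroid and megakaryocytic factors Tal1, Gfi1b and Nfe2 were at -2.98, -3.27 and -3.07.

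**Figure D4:**
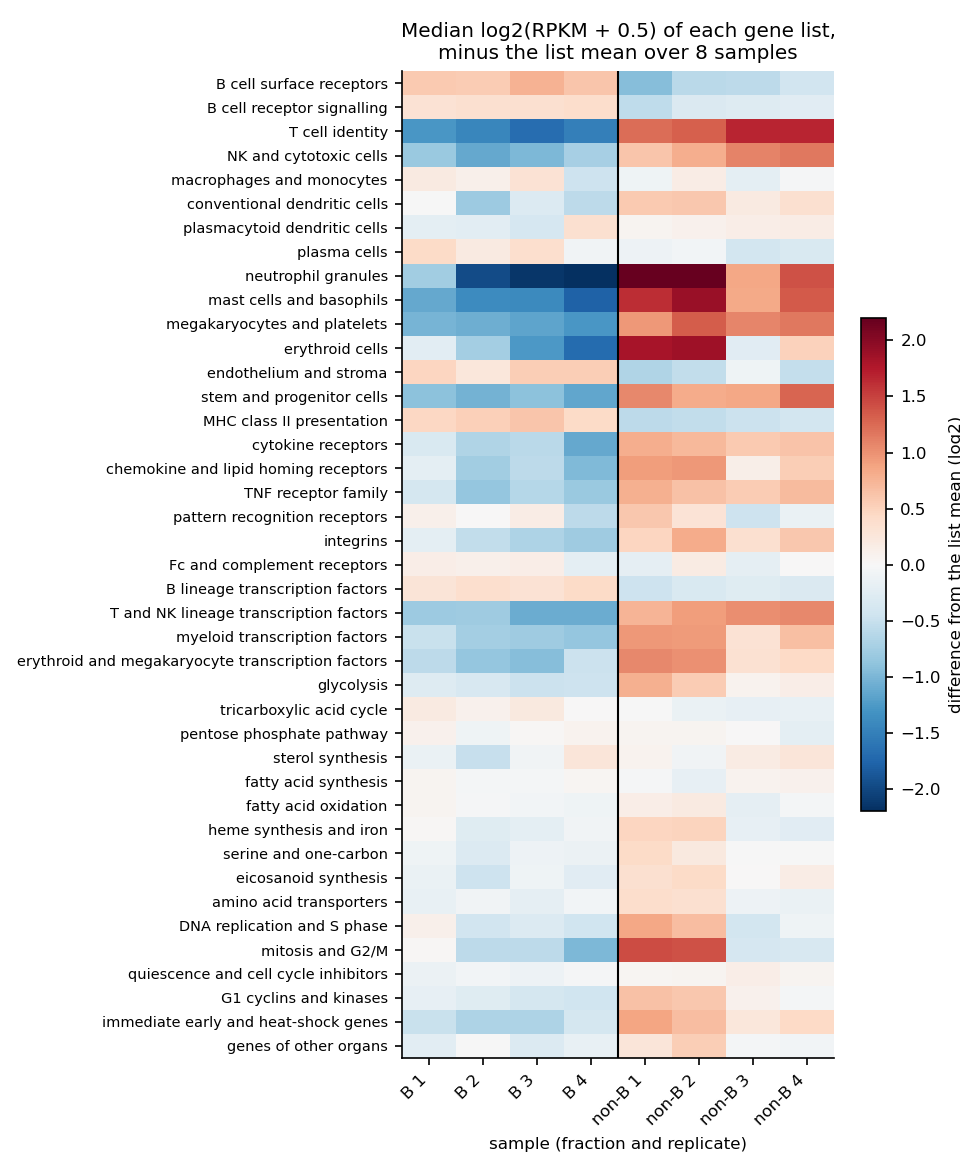
Heat map with 1 row per gene list and 1 column per sample, coloured by the median log2(RPKM + 0.5) of the list's tested members minus its mean over the 8 samples. Lists of granulocytic, erythroid and dividing cells are highest in non-B replicates 1 and 2, T cell lists in non-B replicates 3 and 4, and B cell lists are high across the 4 B samples.

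Erythroid promoters are known for GATA sites. The letters AGATAA, on either strand, were in 35% of 20 promoters of the erythroid list and in 6.99% of the promoters of all genes tested. Their share was 9.06% in genes higher in B and 8.88% in genes higher in non-B cells. In the other lists searched it ran from 2.7% (replication genes) to 20.8% (neutrophil genes). The promoter of Kel is shown as that of the called member with the largest difference among those with a match, from GRCm38.p6 at chr6:41704276-41704575 on the minus strand, with the match in capitals, at -56 from the start.
Kel: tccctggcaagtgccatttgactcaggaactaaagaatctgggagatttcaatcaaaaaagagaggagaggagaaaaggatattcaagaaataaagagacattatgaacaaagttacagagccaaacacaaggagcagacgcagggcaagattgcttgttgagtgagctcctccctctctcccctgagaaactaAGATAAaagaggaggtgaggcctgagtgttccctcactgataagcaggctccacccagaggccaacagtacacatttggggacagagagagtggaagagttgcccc

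Cytokine receptors lay mostly with the non-B fraction, where 24 of 45 tested were higher, against 2 in B cells. One of those, Il9r, the receptor chain for interleukin-9, was at 62.7, 66.2, 59.6 and 36.8 RPKM in B and 10.7, 17.2, 9.92 and 10.4 in non-B cells, at 2.18 ± 0.22 (SE, adjusted p = 5.8e-05), with B replicate 4 the lowest of the B samples and still above every non-B sample. The other was Il5ra. Il7r, which carries the survival signal of naive T cells and is shut off in mature B cells, was at 5.42, 5.77, 3.68 and 5.44 against 47.6, 54.2, 80.3 and 73.2 (-3.51 ± 0.19 SE, adjusted p = 2.6e-06). Il18r1, Il2rb, Il6ra and Il6st were higher in non-B cells, at -2.86, -2.25, -1.61 and -1.48. The decoy receptor Il1r2, found on neutrophils, was at -3.53. Il4ra was at 67.7, 67.9, 69.8 and 69.2 RPKM in B and 54.9, 49.6, 54.1 and 58.9 in non-B cells, with no overlap, but its difference of 0.34 (adjusted p = 0.0015) was under the fold threshold.

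Of 39 receptors for chemokines and lipids, which place lymphocytes within the spleen, 8 were higher in B and 23 in non-B cells. S1pr3, a sphingosine-1-phosphate receptor, was at 31.1, 25.9, 27.3 and 21.5 RPKM in B and 4.05, 4.74, 4.51 and 4.43 in non-B cells, at 2.44 ± 0.12 (SE, adjusted p = 1.6e-06), one of the 15 largest differences on the B side. Ccr6 was at 63.8, 69.8, 72.6 and 63.3 against 15, 22.5, 19.9 and 22.3, and Cxcr5, which draws B cells into follicles, at 117, 115, 131 and 105 against 38.5, 49, 47.8 and 52.6 RPKM. They were called at 1.75 ± 0.12 (SE, adjusted p = 8.2e-06) and 1.32 ± 0.1 (SE, adjusted p = 1.5e-05), with no overlap. The scavenging receptors Ackr2 and Ackr3 were higher in B cells by 2.65 and 2.23. On the other side, the leukotriene B4 receptor Ltb4r1 and the complement receptor C5ar1, both of neutrophils, were at -4.3 and -4.08, and Cxcr3, Ccr4 and S1pr5, of effector T and NK cells, at -2.28, -2.77 and -2.88. Ccr7, the receptor for entry into T cell zones, was at 67.2, 70, 74.5 and 72.4 RPKM in B and 63.6, 64.6, 101 and 98.1 in non-B cells and was not called (-0.17, adjusted p = 0.4). Its non-B values exceeded the B range in replicates 3 and 4, the replicates with more T cell transcripts, and lay below it in replicates 1 and 2.

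In the TNF receptor family, 5 of 24 tested members were higher in B and 11 in non-B cells. Besides Tnfrsf13c, the B side held Cd40, which receives T cell help, at 63.1, 66.4, 67.6 and 61.5 RPKM in B and 22.6, 24.6, 24.9 and 26.1 in non-B cells (1.38 ± 0.06 SE, adjusted p = 1.4e-06), and Tnfrsf13b, Ngfr and Tnfrsf19, at 1.12, 1.21 and 0.91. Cd40lg, the partner of Cd40 on T cells, was at 0.856, 0.598, 0.419 and 1.0 against 14.3, 14.3, 27.2 and 29.9 RPKM, at -4.11 ± 0.28 (SE, adjusted p = 6.9e-06), so that receptor and ligand were higher in opposite fractions. The TNF receptor Tnfrsf1a was at 12.8, 11.9, 13.1 and 11.2 against 63.3, 57.3, 43.9 and 50.5 RPKM, at -2.08 ± 0.11 (SE, adjusted p = 2.6e-06), and Tnfrsf25, Tnfrsf9 and Fas were at -3.44, -2.84 and -1.39.

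Pattern recognition receptors were divided, with 10 of 33 tested higher in B and 12 in non-B cells. Tlr9, the endosomal receptor for CpG DNA, Tlr1 and Cd180, a relative of the Toll-like receptors on B cells, were higher in B cells by 0.89, 0.83 and 1.04. Nlrp3, a sensor that forms inflammasomes in myeloid cells, was at 3.18, 2.62, 3.27 and 2.24 RPKM in B and 24.8, 22.9, 12 and 16.3 in non-B cells, at -2.51 ± 0.22 (SE, adjusted p = 2.9e-05), and the flagellin receptor Tlr5 and the lectins Clec4d and Clec7a were at -2.72, -3.73 and -2.19. Tlr4 was called higher in B cells, at 0.78 (adjusted p = 0.034), although its fractions overlapped, and the call was lost on leaving out any library but non-B replicates 1 or 2, with differences between 0.54 and 0.84.

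Integrins, the adhesion receptors, were higher in non-B cells for 15 of 25 tested, among them Itga5 at -3.03, Itgae at -2.32, Itgb1 at -0.74 and Itgal at -0.73. The 2 on the B side were Itgad and Itga9, at 1.36 and 1.44. Receptors for antibody and complement leaned to B cells, with 11 of 24 tested higher there and 5 higher in non-B cells. Fcgr2b, the inhibitory Fc receptor of B cells, was at 51.9, 51.5, 54.3 and 49.1 RPKM in B and 28.5, 32.6, 25.9 and 27.9 in non-B cells (0.84 ± 0.07 SE, adjusted p = 2.4e-05). Fcamr, a receptor for IgM, and the complement regulator Cd55 were higher by 1.91 and 1.18.

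Myeloid transcription factors were higher in non-B cells for 13 of 26 tested, with Cebpe, which neutrophil granules require, at -3.54, Fosl2 at -3.41, Cebpb at -1.83 and Klf4 at -2.0. On the B side, Spic and Nr1h3, factors known from tissue macrophages, were at 1.29 and 1.18. Nr4a1, an early factor that also marks patrolling monocytes, was at 16.7, 18.5, 19.3 and 19.4 RPKM in B and 50.4, 51.4, 44.5 and 52.8 in non-B cells, at -1.41 ± 0.07 (SE, adjusted p = 2.3e-06).

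Few genes of core energy metabolism were called. Of 27 genes of the tricarboxylic acid cycle, 1 was called by limma, with 11 at an unadjusted p under 0.05. Of 19 tested genes of fatty acid oxidation 0 were called by limma, with 5 at an unadjusted p under 0.05. The median differences of the cycle and of fatty acid oxidation were 0.04 and 0.02. Fh1, fumarate hydratase, was the exception in the cycle, at 38.8, 36.5, 39.6 and 33.3 RPKM in B and 23.3, 20.5, 18.8 and 20.3 in non-B cells, at 0.82 ± 0.08 (SE, adjusted p = 5e-05). Sterol synthesis had 1 of 23 tested higher in B and 2 in non-B cells, and serine and one-carbon metabolism 0 and 2 of 17. These small counts moved by 1 when single libraries were left out. A further gene of the cycle was called without B replicate 1, B replicate 4 or non-B replicate 1, 1 sterol gene was higher in non-B cells in place of 2 without B replicates 1 or 2 or non-B replicates 1 or 4, and 1 one-carbon gene without B replicates 2, 3 or 4 or non-B replicates 1 or 2.

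Glycolysis leaned to the non-B fraction, with 13 of 29 tested higher there and 1 in B cells. Slc16a3, a lactate exporter, was at 3.09, 2.36, 2.24 and 2.02 RPKM in B and 39, 34.5, 15.8 and 22.1 in non-B cells (-3.2 ± 0.27 SE, adjusted p = 1.9e-05), and Ldhb, a lactate dehydrogenase subunit, at 0.829, 0.745, 0.812 and 1.05 against 7.42, 6.75, 11.1 and 7.16 (-2.64 ± 0.17 SE, adjusted p = 5.9e-06). The first was highest in non-B replicates 1 and 2 and the second in replicate 3. Hexokinase 1 (Hk1), an enzyme of the first step of the pathway, was at 9.3, 8.33, 7.78 and 9.07 against 22.9, 21.6, 18 and 19.5 RPKM, at -1.2 ± 0.1 (SE, adjusted p = 1.6e-05). Pklr, the pyruvate kinase of liver and red cells, and Pfkm were at -3.33 and -1.93. Aldoc, an aldolase, was the exception, with 7.74, 5.99, 7.06 and 7.46 RPKM in B and 2.8, 3.27, 2.88 and 1.78 in non-B cells, at 1.27 ± 0.17 (SE, adjusted p = 0.00035).

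In fatty acid synthesis, 1 of 16 tested genes was higher in B and 5 in non-B cells. Scd1, the desaturase that makes monounsaturated fatty acids, was at 105, 114, 126 and 109 RPKM in B and 29.4, 43.4, 49.8 and 51.6 in non-B cells, at 1.4 ± 0.16 (SE, adjusted p = 0.00014). Elovl6, the elongase that works beside it, went the other way, at 2.85, 2.58, 2.37 and 2.77 against 9.49, 7.79, 9.65 and 7.75 RPKM (-1.54 ± 0.12 SE, adjusted p = 1.5e-05), and so did Elovl7, Fads2 and Acss2, at -2.02, -2.08 and -1.59. In the pentose phosphate pathway, Pgls was higher in B cells by 0.77, and Pgd, the enzyme of the next step, was at -0.92. Genes of eicosanoid synthesis went both ways, with 4 of 16 tested higher in B and 6 in non-B cells. Alox5, the 5-lipoxygenase that starts leukotriene synthesis, was at 0.846, 0.5, 0.482 and 0.523 RPKM in B and 28.1, 23.8, 6.73 and 15 in non-B cells, at -3.96 ± 0.39 (SE, adjusted p = 4.8e-05), with its partner Alox5ap at -2.06, while the prostaglandin enzymes Hpgds, Ptgis and Ptgs1 were higher in B cells by 1.39, 1.36 and 0.89. Ptgs2, the inducible cyclooxygenase, was on the non-B side, at -1.94.

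Heme and iron genes were called for 5 of 26 tested, a share below the 24.8% of all genes. Hmox1, which breaks down heme in macrophages, was higher in B cells by 0.92, and Tfr2 and Steap3, for iron uptake in red cell precursors, were at -2.95 and -2.45. The 4 heme and iron genes higher in non-B cells became 12 without non-B replicate 3 and 8 without non-B replicate 4. With replicates 1 and 2 of each fraction alone they became 13, and 14 with sample weights, which favoured non-B replicate 2. Of 21 tested amino acid transporters, 2 were higher in B, or 4 without B replicate 2, and 5 in non-B cells. Slc15a4, an endosomal transporter needed for Toll-like receptor signals in B cells, was at 61.3, 63.7, 64.8 and 63.9 RPKM in B and 41.7, 37.9, 38.3 and 42 in non-B cells (0.66 ± 0.05 SE, adjusted p = 1.7e-05), and Slc38a5 and Slc7a5 were at -2.98 and -1.05.

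Genes of DNA replication and mitosis varied widely within the non-B fraction. Of 46 replication genes, 8 were higher in non-B cells and 0 in B cells, a share on the non-B side close to the 16.9% of all genes tested, and of 67 tested mitotic genes 15 and 0. These counts depended on single libraries and on the fit, since the replicate number as a block gave 16 and 46 and sample weights 35 and 65. Those weights were 5.99 for non-B replicate 2 but 0.28 and 0.29 for non-B replicates 3 and 4. The weighted fit thus gave the low pair little part, much as the fit to replicates 1 and 2 alone did. Of the mitotic genes, 5 were called without B replicates 2, 3 or 4 or non-B replicates 1 or 2 (each left out in turn), but 52 without non-B replicate 3 and 38 without non-B replicate 4, and of the replication genes 1 or 2, but 26 and 14. With replicates 1 and 2 alone, 65 mitotic genes were higher in non-B cells, and with replicates 3 and 4 alone 5. The median SD of log2(RPKM + 0.5) over the 4 non-B samples was 0.56 for the first list and 1.01 for the second, against 0.17 over all genes. Mki67, the Ki-67 marker of cycling cells, was at 53.3, 37.4, 40.9 and 20.8 RPKM in B and 99.9, 101, 36.8 and 45.9 in non-B cells, and its difference of -0.82 (adjusted p = 0.11) was not called, but was without non-B replicate 3 (-1.09, adjusted p = 0.038), with the replicate block (-0.83, adjusted p = 0.033), with replicates 1 and 2 alone (-1.16, adjusted p = 0.0042) and with sample weights (-1.31, adjusted p = 0.00065). Non-B replicates 1 and 2 were about level with each other and above all B samples, while replicates 3 and 4 lay within the B range. Cdc6, which loads the replicative helicase, was at 4.75, 2.85, 2.97 and 1.18 against 25.5, 24.3, 4.27 and 5.94 RPKM and was called at -1.9 ± 0.6 (SE, adjusted p = 0.029) with overlap, a call lost without B replicates 2, 3 or 4 or non-B replicates 1 or 2, at -1.52 to -1.94. Espl1, the protease that separates sister chromatids, was at 2.95, 1.9, 2.45 and 1.65 against 20.2, 16.6, 3.78 and 5.14 (-1.84 ± 0.49 SE, adjusted p = 0.014). Racgap1, a protein of cytokinesis, was at 12.4, 9.12, 8.3 and 9.04 against 27.7, 28.3, 19.5 and 19.2 RPKM (-1.24 ± 0.17 SE, adjusted p = 0.00034), with no overlap and the smallest SE of these 4 genes. B replicate 4 was the lowest B sample for Mki67, Cdc6 and Espl1.

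The mitotic list is one in which promoter letters are shared. TTTGAA, the core of the cell cycle homology region (CHR), was present in 70.9% of 55 promoters of mitotic genes and in 12.1% of all tested, CCAAT in 69.1% and 39%, and TTCCCGC, an E2F site, in 40.5% of 37 promoters of replication genes and 8.32% of all, on either strand. These shares were 12.3%, 35.8% and 6.06% in the 1700 promoters of genes higher in non-B cells. The promoters of Cdc6 (GRCm38.p6, chr11:98907901-98908200, plus strand) and Espl1 (chr15:102296043-102296342, plus strand) are given as those of the called members with the largest differences among those with a match, with the E2F match on the reverse strand and the CHR match in capitals, at -138 and -27 from the start.
Cdc6: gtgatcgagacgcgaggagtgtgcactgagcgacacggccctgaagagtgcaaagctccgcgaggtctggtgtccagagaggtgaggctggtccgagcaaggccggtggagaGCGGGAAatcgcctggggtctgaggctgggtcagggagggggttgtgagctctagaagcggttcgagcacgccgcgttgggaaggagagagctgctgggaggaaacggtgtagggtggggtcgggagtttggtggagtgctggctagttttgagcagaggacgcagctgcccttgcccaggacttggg
Espl1: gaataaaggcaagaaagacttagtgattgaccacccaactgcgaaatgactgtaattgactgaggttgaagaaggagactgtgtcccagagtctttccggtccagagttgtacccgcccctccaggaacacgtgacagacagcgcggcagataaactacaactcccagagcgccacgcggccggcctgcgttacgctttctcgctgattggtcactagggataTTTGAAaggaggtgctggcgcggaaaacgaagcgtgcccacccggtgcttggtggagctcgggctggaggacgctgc
ATGCAAAT, the octamer bound by the Oct factors of B cells, was in 2.85% of 773 promoters of genes higher in B, 1.59% of those higher in non-B cells and 1.4% of all. It was in 0 of 18 promoters of B cell surface receptors and 0 of 13 class II promoters.

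Regulators of entry into the cycle were higher in non-B cells for 8 of 27 tested and in B cells for 0. Ccnd2, the D-type cyclin of lymphocytes, was at 40.4, 36.7, 41.4 and 46.3 RPKM in B and 57.5, 59.7, 81.6 and 79.9 in non-B cells (-0.74 ± 0.13 SE, adjusted p = 0.0015), with the high pair in replicates 3 and 4, unlike the mitotic genes. Ccnd1, Ccnd3 and E2f8 were at -1.11, -0.65 and -2.2, with Ccnd3 not called without B replicate 1 (-0.54) or non-B replicate 3 (-0.57). Mxd1, a repressor that opposes Myc in maturing myeloid cells, was at 15.2, 12, 11.8 and 12.6 against 73.2, 70.1, 37.9 and 50.4 RPKM, at -2.08 ± 0.2 (SE, adjusted p = 3.9e-05). Of 26 tested genes of quiescence and cell cycle inhibition, 1 was higher in B and 3 in non-B cells, shares below the 7.88% and 16.9% of all genes tested. Foxp1, which keeps naive lymphocytes at rest, was at 62.8, 68.2, 66.9 and 67.8 RPKM in B and 34.9, 40, 49.7 and 45.7 in non-B cells (0.65 ± 0.1 SE, adjusted p = 0.00081), or 0.56 apart and not called without non-B replicate 1. Cdkn1a, the p21 inhibitor and a target of p53, was low in all samples, at 1.36, 1.01, 1.06 and 0.893 against 5.87, 5.83, 2.85 and 3.73, and called higher in non-B cells, at -1.64 ± 0.23 (SE, adjusted p = 0.00042).

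Immediate early and heat-shock genes, which handling of tissue can raise, were higher in non-B cells for 8 of 18 tested and in B cells for 0. Dusp1, a phosphatase that ends kinase signals, was at 7.31, 7.97, 9.65 and 6.76 RPKM in B and 58.9, 71.9, 39.5 and 41.6 in non-B cells (-2.63 ± 0.19 SE, adjusted p = 1.1e-05), and Fos at 5.71, 4.64, 6.2 and 5.08 against 42.6, 46.2, 21.6 and 22.9 (-2.44 ± 0.25 SE, adjusted p = 6.2e-05). Both were highest in non-B replicates 1 and 2. Ier3, Atf3 and Hspa1a were at -2.58, -2.1 and -1.91. The summed level of the list was 399 to 430.0 RPKM in B and 565 to 656 in non-B samples. The part of handling in this was not tested.

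Beyond the lists, the 15 genes with the largest differences on the B side included Ubd, at 13.2, 14.2, 17.6 and 9.01 RPKM in B and 1.74, 3.0, 1.25 and 1.83 in non-B cells (2.52 ± 0.25 SE, adjusted p = 5.1e-05), a ubiquitin-like modifier, Il12a, a subunit of the cytokines interleukin-12 and interleukin-35, at 24.6, 21.3, 20.5 and 20.5 against 2.97, 3.76, 4.27 and 4.94 (2.32 ± 0.14 SE, adjusted p = 4e-06), and Ell3, an elongation factor of B cells, at 55.7, 52.1, 56.9 and 47.8 against 6.59, 11.1, 12.2 and 14.4 (2.26 ± 0.2 SE, adjusted p = 2.6e-05). The signalling regulator Rgs13, the receptor kinase Ltk and the repressor Hes5 were among them at 2.41, 2.33 and 2.29. On the non-B side stood Cd177, a neutrophil surface protein, H2-Q10, Dapl1 and Igfbp4, at -4.35, -4.31, -4.2 and -4.13. Igfbp4 was at 3.39, 2.43, 2.6 and 2.47 RPKM in B and 46.9, 45.5, 67.7 and 65.6 in non-B cells, with the smallest SE of these 4, at -4.13 ± 0.16 (SE, adjusted p = 1.1e-06). Of the 10 genes of widest spread among B samples, Eps8l1 led, at 23.1, 1.05, 44.7 and 24.3 RPKM in B and 12.8, 0.761, 18.9 and 21.7 in non-B replicates 1 to 4, low in number 2 of both fractions, and 4 were neutrophil genes (Lcn2, Ltf, Ngp and Camp). Lcn2 was at 21.8, 8.51, 4.15 and 0.488 RPKM and Ngp at 40, 13.3, 8.24 and 2.15 in B replicates 1 to 4, each with B replicate 1 the highest and B replicate 4 the lowest. Those of widest spread among non-B samples were Xist, Eif2s3y and Ddx3y, which carry the sex of replicate 4, and genes of red cell precursors such as Dmtn, at 22.3, 27.6, 1.04 and 4.42 RPKM in replicates 1 to 4.

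The same contrast in the Trp53-/- samples used libraries that took no part in the comparison above. Their fit pooled the spread over all 12 unstressed samples, so that it came mostly from the 8 wild-type libraries. The genes tested were those that passed the filter in these 8. The calls in the 2 genotypes are thus not independent of each other. Trp53 itself was at 21.6 and 21.7 RPKM in their B and 24 and 25 in their non-B samples, against 44.8 to 47.9 and 43.4 to 49.5 in wild-type samples. The level was thus lower in each of these samples but not 0, and a value per gene does not show which exons it holds. With 12 unstressed samples in 1 fit, 2639 genes were called between Trp53-/- B and non-B cells (19.2% of those tested), 861 higher in B and 1778 higher in non-B cells. Of the 3407 genes called in wild-type mice, 3360 had the same sign, and 2286 were also called in the same direction, which is 67.1% of the wild-type and 86.6% of the Trp53-/- calls. Ms4a1, Cd3e and S1pr3 had differences of 1.33, -4.27 and 2.51 there, against 1.37, -3.69 and 2.44 in wild-type cells. Other values lay further apart, such as Marco at 1.38 against 2.55 and Lcn2 at -5.52 against -3.74, both chosen after their values were seen, while Itgam was at -2.87 against -2.87. The difference of the contrasts between genotypes reached an adjusted p under 0.05 in limma for 0 genes, with 799 at an unadjusted p under 0.05, so that no difference was shown to depend on genotype, and with 2 samples per fraction, all male, genotype could not be told apart from sex.

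**Figure D5:**
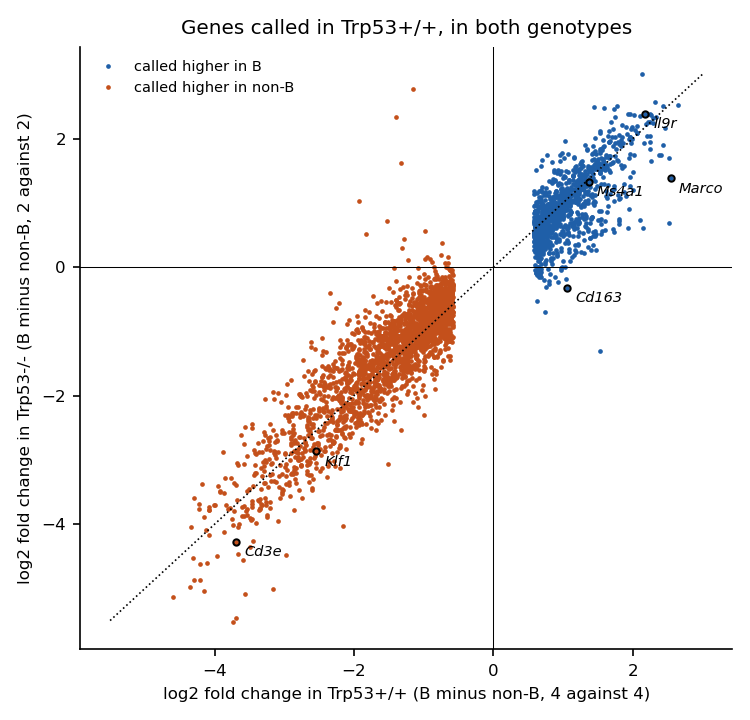
Log2 difference (B minus non-B) in Trp53-/- samples (2 against 2) against that in Trp53+/+ samples (4 against 4), for the 3407 genes called in Trp53+/+ samples, with the line of equality. Of these, 3360 have the same sign in both, and Cd163 is one of those that do not.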

How the data were processed

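Total RNA of column-sorted splenic B and non-B cells was depleted of ribosomal RNA and sequenced. As the methods of the study describe, the authors masked bases of low quality, aligned reads to mm9 with TopHat, retained a single copy of duplicate reads and counted reads on the exons of UCSC genes with featureCounts. The submitters' processing notes name TopHat2 2.0.8 and featureCounts 1.4.5, and the methods another version of TopHat, so the version used is not settled. They deposited RPKM values, which divide reads by the length of the gene and by the exonic reads of the sample, 1 file per sample. Counts were not analysed here, so the count model of the study was not repeated.

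Genes with an RPKM above 1 in any of the 8 samples were tested with limma 3.58.1 in R 4.3.3 (lmFit, eBayes with a mean-variance trend, no block) on log2(RPKM + 0.5), a scale that understates the change of low genes. The 8 samples alone entered the main comparison, and all 12 unstressed samples that of Trp53-/- mice. The methods of the study describe the samples of a group as separate mice, so p-values measure the spread between mice. Each group had 4 samples, or 2 for Trp53-/-. Depth was estimated from the most common low RPKM step, with exon lengths of the GENCODE annotation of NCBIM37 for 91.9% of genes, and is approximate. Scripts were tested on simulated data. Tables and plots used Python 3.11.15, pandas 2.3.3, numpy 2.4.6 and matplotlib 3.10.9.

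The members, gene lists (41 lists, 999 genes in the files, 946 tested) and tests were chosen with earlier results of these data known. Counts over the tested members of a list are descriptions with no test of the list, since a gene that is high in 1 fraction passes the filter through it. Genes were named by rule: the 5 markers, the 5 called members of each list with the largest differences in its main direction, up to 3 in the other, its 2 most abundant members not called, the 15 largest differences in each direction, the 10 most abundant and the 10 most variable genes of each fraction. Some of these were left out for space or are not reported here, and a few others were added after their values were seen. Promoters came from RefSeq (GRCm38.p6), matched by symbol for 10085 of 13756 genes (73.3%), with the first window of each symbol, and motifs were searched on both strands. The alternatives covered pseudocounts, filters, scaling, sample weights, thresholds, replicate subsets and single samples left out.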

Additional observations from a re-analysis of the deposited data

Results flagged for a closer look

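For 85 of the genes whose RPKM in every sample is given, the 4 samples of each fraction were checked for one that stands apart by Dixon's ratio. Xist was not among these 85, although non-B replicate 4, the male library, was at 0.617 RPKM for it, against 81.3 to 90.8 in the other non-B samples. Of 170 groups, 10 had such a sample, where chance gives about 1 in 20. In B cells, Marco was at 17.1 RPKM in replicate 1, against 10.5 to 11 in the other 3, and Alox5 at 0.846 in replicate 1, against 0.482 to 0.523. Btk was at 50.7 in B replicate 1, against 56.2 to 57. Cd24a was at 136 in B replicate 3, against 116 to 118, and Il7r at 3.68, against 5.42 to 5.77. In non-B cells, replicate 1 was low for Cr2, at 28.8 against 41.3 to 43.1, and for Marco, at 1.18 against 1.83 to 1.89. Non-B replicate 2 was high for Cd5l, at 27.9 against 20.4 to 20.9, and for Il9r, at 17.2 against 9.92 to 10.7. Ldhb was at 11.1 in non-B replicate 3, against 6.75 to 7.42. None of these samples overlapped the other fraction for the called genes among them.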

How the results depend on the processing

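The counts of 1084 genes higher in B and 2323 higher in non-B cells stayed within 1.5 times under pseudocounts of 0.1 and 1, no filter or a stricter one, median-ratio scaling, sample weights, an adjusted p under 0.01, the fit over 12 samples and either pair of replicates. Leaving out single samples gave 1011 to 1125 and 2076 to 2548, or 3137 to 3673 calls in all. Quantile normalization gave 1823 genes higher in B cells. Without a fold threshold 6109 genes were called, 2873 of them higher in B cells, and with an absolute log2 difference above 1 these were 2039 and 471, as fewer or more genes can pass. An alternative added after the data were seen, restricted to 12008 genes under 50 RPKM in all 8 samples, gave 850 and 2111. In Trp53-/- samples, leaving out 1 of the 4 (also added) gave 1999 to 2399 calls, with a lone sample assumed to vary like the other groups.

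The 202 called genes named in the text kept their direction under each of the 20 alternatives that tested them, and 186 were called under each. Quantile normalization ended 7 of these calls and replicates 3 and 4 alone ended 9. Of genes not called, Cd2 turned to -0.04 under quantile normalization and -0.06 with replicates 3 and 4, and Ccr7 to 0.10 with replicates 1 and 2 and 0.08 with sample weights. Eps8l1 ran from -0.33 to 1.69 with single samples left out. The cause was not tested. Sample weights raised the erythroid genes called from 19 to 29 and the mitotic genes from 15 to 65. Non-B replicate 2 had a weight of 5.99 there, and non-B replicates 3 and 4 had 0.28 and 0.29. Replicates 3 and 4 alone lowered the endothelial and stromal genes higher in B cells from 12 to 5.

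The replicate numbers shared by the fractions were not shown to pair the samples. The deviations of same-numbered samples from their group means correlated across genes at 0.36, 0.03, -0.05 and 0.22 for numbers 1 to 4, number 4 joins a female and a male library, and whether numbers 1 to 3 mark a shared mouse was not settled. With the replicate number as a block, 1079 genes were higher in B and 2420 in non-B cells, but the mitotic genes called rose from 15 to 46, the replication genes from 8 to 16, and Mki67 passed at -0.83.

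Depth limits low genes, since estimates of 7.76 to 11.2 M (mega) reads leave few reads on a short gene at an RPKM near 1.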
